A study of Mus musculus with 12 samples.

Results

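Hox genes of the HoxA and HoxB clusters were followed in sorted mouse hematopoietic stem cells. The members were the rows of the deposited expression table whose gene name was Hoxa5, Hoxa7, Hoxa9, Hoxa10, Hoxb2, Hoxb3, Hoxb4, Hoxb5, Hoxb6 or Hoxb8, which made 10 genes of 20457 in the table. The cells came from bone marrow of C57BL/6 mice of 28 months (old) or 2 months (young). They were sorted by presence (IL27RA+) or absence (IL27RA-) of the surface receptor for interleukin 27, which gave the groups old IL27RA+, old IL27RA-, young IL27RA+ and young IL27RA-, each with 3 libraries of 50 cells. No label ties a library to an animal of its own. The p-values therefore speak of the spread among these 12 samples alone, and part of that spread may be technical. The gates for a stem cell are not named in the sources used here.

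Hox genes encode homeodomain transcription factors and lie in clusters on different chromosomes, in which the order of genes follows the body axis they pattern in the embryo. In blood, genes of the HoxA and HoxB clusters are active in stem and early progenitor cells and are shut down as cells mature. Their proteins bind DNA together with TALE homeodomain partners of the Pbx and Meis families, the MLL histone methyltransferase complex keeps them active, and Polycomb complexes silence them. In mice Hoxb5 marks long-term stem cells, and Hoxa9 loss impairs stem cell repopulation.

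Reads in genes numbered 13609617 to 16715023 in old IL27RA+, 12756522 to 17822817 in old IL27RA-, 11669083 to 16480943 in young IL27RA+ and 19085252 to 24153167 in young IL27RA- libraries, the deepest group. All 17 genes of a stem cell identity list, among them Procr and Mecom, had reads in each of the 12 libraries. The sorted receptor's mRNA, Il27ra, averaged 1294 ± 182 normalized counts in old IL27RA+, 1379 ± 282 in old IL27RA-, 1088 ± 185 in young IL27RA+ and 1231 ± 457 in young IL27RA- libraries (SD, n = 3 each). Old IL27RA- replicate 1 held 379227 normalized counts over the B and plasma cell list, against 1822 to 9315 in the other 11 libraries, and 1 of its labels calls it young although its title and age say old. This library and young IL27RA- replicate 2 had the smallest library weights across all genes, 0.544 and 0.436. The main fit did not use these weights. Normalized counts are reads divided by the size factor of the library, and a floor of 3 reads corresponds to 1.93 to 3.77 normalized counts.

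All 10 members were detected in all 12 libraries, with 520 reads in all for Hoxb3 and 31236 for Hoxa9 as the extremes. Because long transcripts collect more reads, levels of different genes were compared as normalized counts per kilobase of exon. That length takes in all annotated exons of a gene, 3488 bases for Hoxb2 and 2876 for Hoxa7. Their longest coding transcripts have 1628 and 2009 bases. The order below, and the place of Hoxb2 in it, therefore depends on the length used, and other lengths were not tried. Hoxa7 was the highest on this scale at 533, followed by Hoxa10 at 499.8, Hoxa9 at 436, Hoxb2 at 425 and Hoxb5 at 315 (means of 12 libraries). Hoxb6 stood at 202, Hoxa5 at 117, Hoxb4 at 95.4, Hoxb8 at 19.8 and Hoxb3 at 10.1 per kilobase.

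The neighbours in this order were close. Hoxa7 exceeded Hoxa10 in 6 of 12 libraries, and Hoxa9 exceeded Hoxb2 in 7 of 12. Hoxb2 exceeded Hoxb5 in 9, Hoxb5 exceeded Hoxb6 in 11 and Hoxb6 exceeded Hoxa5 in 10 libraries, yet each of these differences of means was smaller than the larger SD of the pair. Only the step between Hoxb4 and Hoxb8, a ratio of 4.81 between means, exceeded the larger SD of its pair, which it did by 75.6 against 40.7 per kilobase.

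**Figure D1:**
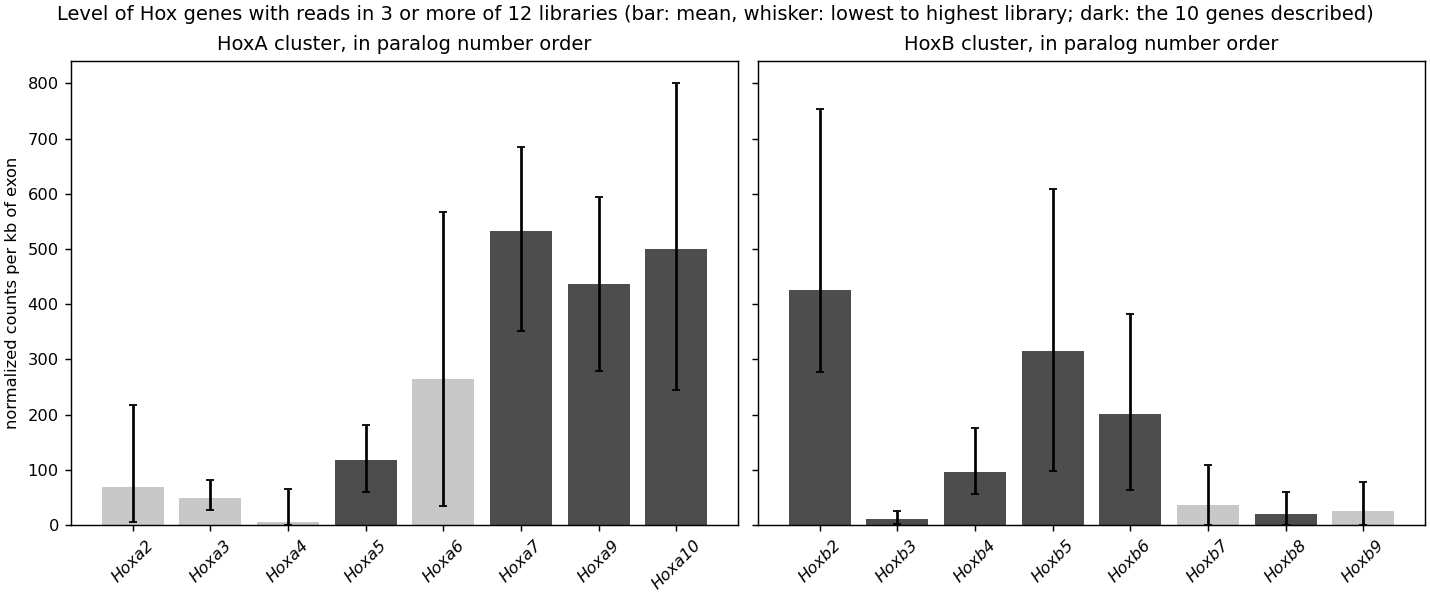
Mean level of the Hox genes of the HoxA (left) and HoxB (right) clusters with reads in 3 or more libraries, as normalized counts per kilobase of exon over 12 libraries, with whiskers between the lowest and the highest library and the 10 described genes in dark. Hoxa7, Hoxa9 and Hoxa10 formed the high end of HoxA, while in HoxB Hoxb2 and Hoxb5 stood high and Hoxb3 and Hoxb8 low.

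The other genes of the clusters filled in this picture. Hoxa6, which lies between Hoxa5 and Hoxa7, had 264 normalized counts per kilobase, Hoxa2 had 69.8 and Hoxa3 had 49.7. In HoxB, Hoxb7 had 37.0 and Hoxb9 26.1 per kilobase, so that Hoxb7, Hoxb8 and Hoxb9 were all far below Hoxb5 and Hoxb6 on the per-kilobase scale. Hoxa4 had reads in 3 libraries. Of 8 HoxC and HoxD genes in the table, Hoxc6 had reads in all 12 libraries and 13.2 normalized counts per kilobase, between Hoxb8 and Hoxb3. Hoxc4 had 6.70 per kilobase with reads in 5 libraries, and Hoxc8, Hoxc9, Hoxc10, Hoxd3, Hoxd4 and Hoxd12 had reads in at most 3 libraries.

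Non-coding RNAs that run through the clusters were also read. Hoxb3os, antisense to Hoxb2 and Hoxb3, had 435 normalized counts per kilobase, Hotairm1 in HoxA had 100.3, Hoxaas3 had 79.4, Hoxb5os had 40.1 and Hoxaas2 had 13.2. Exons of Hoxb3os overlap exons of Hoxb2 and Hoxb3, those of Hoxaas3 overlap Hoxa7, and those of Hoxb5os overlap Hoxb5. The Smart-Seq2 kit does not mark strand, so reads of a gene and its antisense partner cannot be told apart in the shared exons. Across the 12 libraries Hoxb2 and Hoxb3os had a Pearson r of 0.964 and a Spearman rho of 0.965 on the log2 scale, and 0.945 after group means were taken out, a description of 2 measures that share libraries and exons.

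In no comparison did the test call a member. The test was limma with a variance trend on log2(normalized count + 1), a scale that understates changes of low genes, with p-values adjusted over 14803 genes and called at an adjusted p under 0.05. All 10 members passed its filter on low values. In old against young cells, averaged over the fractions, 0 of 10 members were called against 1.85% of all genes (274 genes, 204 higher and 70 lower). In IL27RA+ against IL27RA- cells, averaged over the ages, 0 of 10 were called against 0.189% of all genes (28 genes). The difference between the age effects of the fractions (the interaction) called 0 members and 0% of all genes, while 5.19% (769 genes) had an unadjusted p under 0.05. One member in each of these comparisons, 1 of 10, had an unadjusted p under 0.05: Hoxb8 for age, against 15.1% of all genes, Hoxb5 for the receptor, against 7.98%, and Hoxa10 for the interaction. Limma voom on the recovered reads also called 0 members and put 1 under an unadjusted p of 0.05 in each. Over all genes voom called 0 for the interaction and put 810 under an unadjusted p of 0.05.

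**Figure D2:**
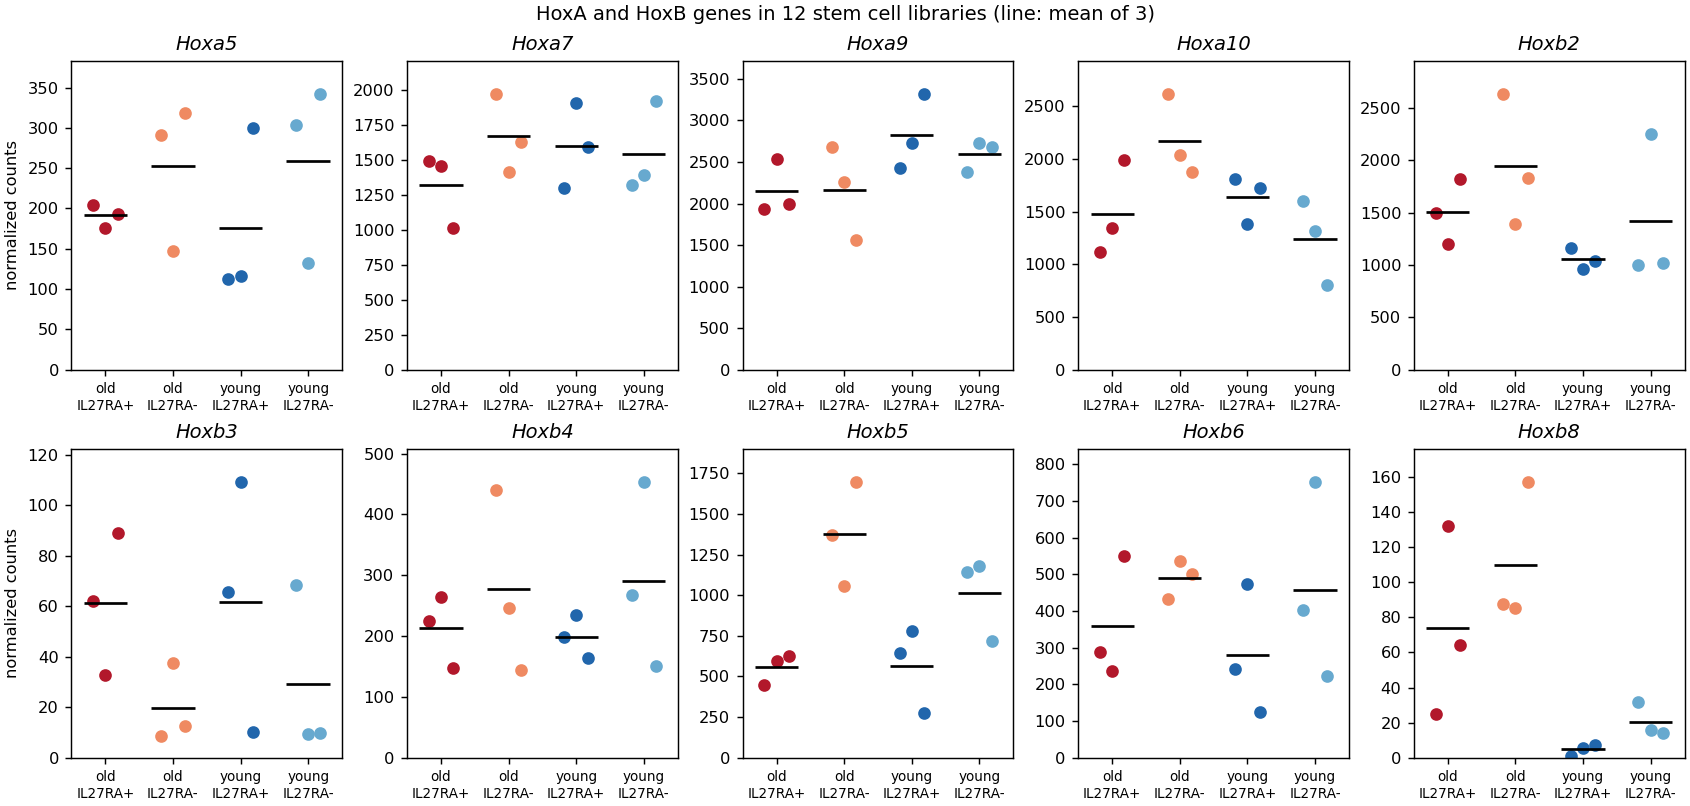
Normalized counts of the 10 Hox genes in each library (points; line, mean of 3 libraries), with old IL27RA+, old IL27RA-, young IL27RA+ and young IL27RA- from left to right and an axis of its own for each gene. Hoxb8 stood higher in old than in young libraries of either fraction, and Hoxb5 stood lower in IL27RA+ than in IL27RA- libraries of old mice without overlap.

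In HoxA, the paralog group 9 gene Hoxa9, which drives self-renewal in leukemia with Meis1, had the smallest SD within groups of the members, while Hoxa7 had the smallest range over the 12 libraries (1.95-fold, against 2.13-fold for Hoxa9). It had 1936, 2537 and 1991 normalized counts in old IL27RA+ libraries and 2678, 2262.5 and 1557 in old IL27RA- libraries. In young IL27RA+ libraries it had 2424, 2724 and 3317, and in young IL27RA- libraries 2378, 2731 and 2683. Old libraries spanned lower values than young ones but overlapped them in both fractions. Old minus young cells, averaged over the fractions, differed by -0.34 ± 0.17 in Hoxa9 (SE, log2; 95% interval -0.71 to 0.03; limma adjusted p = 0.371). The receptor comparison gave 0.06 ± 0.17 for it, with an interval of -0.30 to 0.43.

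Hoxa7, next to Hoxa9 in the cluster, had 1490.5, 1457 and 1011 normalized counts in old IL27RA+ and 1968, 1411 and 1626 in old IL27RA- libraries. Young IL27RA+ libraries had 1301, 1902 and 1594 and young IL27RA- libraries 1316, 1388 and 1917. The 4 groups overlapped throughout. The averaged age difference of Hoxa7 was -0.08 ± 0.19 on the log2 scale (interval -0.49 to 0.33) and its averaged receptor difference -0.14 ± 0.19 (interval -0.55 to 0.26). Within groups, Hoxa9 varied with an SD of 0.26 log2 units, Hoxa7 with 0.28 and Hoxa10 with 0.37, against a median of 0.71 over all genes tested.

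Hoxa10, a regulator of myeloid and megakaryocyte progenitors, had 1115, 1343 and 1987 normalized counts in old IL27RA+ and 2617, 2039 and 1874 in old IL27RA- libraries. Young IL27RA+ libraries had 1811, 1387 and 1724 and young IL27RA- libraries 1598, 1315 and 801. In the IL27RA- fraction all 3 old libraries lay above all 3 young ones, whereas in the IL27RA+ fraction the ages overlapped. Old minus young was 0.86 ± 0.30 in IL27RA- cells (adjusted p = 0.259) and -0.18 ± 0.30 in IL27RA+ cells (adjusted p = 0.931; limma). The interaction was -1.04 ± 0.43 with an unadjusted p of 0.0299 and an adjusted p of 0.924, so the test did not call the difference between fractions.

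Hoxa5, an anterior gene of the cluster with a role in red cell and myeloid choice, had 204, 176 and 193 normalized counts in old IL27RA+ and 291, 147 and 319 in old IL27RA- libraries. Young IL27RA+ libraries had 112, 116 and 299.7 and young IL27RA- libraries 304, 132 and 342. Its spread within groups was 0.63 log2 units, and all groups overlapped. The averaged differences of Hoxa5 were 0.14 ± 0.45 for age and -0.46 ± 0.45 for the receptor, on the log2 scale.

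In HoxB, Hoxb8 carried the largest age difference of all members. Hoxb8 can hold myeloid progenitors in an undifferentiated, dividing state when its expression is forced in mouse cells. It had 24.9, 132 and 64.5 normalized counts in old IL27RA+ libraries, against 0.940, 5.68 and 7.52 in young IL27RA+ libraries. Its values were 87.6, 85.1 and 157 in old IL27RA- libraries, against 31.8, 15.7 and 14.2 in young IL27RA- libraries. Old and young libraries did not overlap in either fraction, although the lowest old IL27RA+ value lay below the highest young IL27RA- one.

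Old minus young was 3.67 ± 1.13 in IL27RA+ cells (adjusted p = 0.283), 2.39 ± 1.13 in IL27RA- cells (adjusted p = 0.405) and 3.03 ± 0.80 averaged over both (adjusted p = 0.0728; 95% interval 1.32 to 4.74; limma, log2). Of 14803 genes, 375 had a smaller p in the averaged comparison. With a pseudocount of 10 in place of 1 the averaged difference was 2.14 and its adjusted p 0.0435. Without old IL27RA- replicate 1 and young IL27RA- replicate 2 it was 3.03 with an adjusted p of 0.151. Over 19 alternatives its adjusted p ranged between 0.0435 and 0.191, and its sign was the same in all 19. The young IL27RA+ values rest on 1, 5 and 6 reads, of which the first is under the floor of 3 reads. The difference of 3.67 in IL27RA+ cells uses that value, and without that library it was 3.01.

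In the receptor comparison Hoxb8 gave IL27RA+ minus IL27RA- differences of -0.80 ± 1.13 in old cells, -2.08 ± 1.13 in young cells and -1.44 ± 0.80 averaged over both (adjusted p = 0.695; limma), with an averaged interval of -3.15 to 0.26.

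Across ages, 2 of 10 members did not overlap and stood higher in old IL27RA- cells (Hoxa10 and Hoxb8), against 7.8% of all genes. In IL27RA+ cells 2 of 10 stood higher without overlap in old libraries (Hoxb2 and Hoxb8), against 9.09% of all genes. No member stood lower in old libraries without overlap, against 6.71% and 7.78% of all genes in the IL27RA- and IL27RA+ fractions. The median averaged age difference over the 10 members was 0.20 log2 units, with 7 positive and 3 negative, beside a median of 0.06 over all genes. In old against young cells the test called 0.669% of all genes in the IL27RA- fraction and 0.426% in the IL27RA+ fraction, and 0 members in either. Under an unadjusted p of 0.05 were 1 member of 10 in IL27RA- cells (Hoxa10), against 12.5% of all genes, and 1 in IL27RA+ cells (Hoxb8), against 8.88%. Over both fractions together no member was free of overlap between the ages, against 1.39% of all genes higher and 0.669% lower.

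Hoxb7 and Hoxb9, the neighbours of Hoxb8, had averaged age differences of 2.09 ± 1.04 and 1.30 ± 1.16 (log2), with adjusted p-values of 0.364 and 0.667 (limma). Hoxb7 averaged 62.8 ± 48.6 normalized counts in old IL27RA+ and 102 ± 57.7 in old IL27RA- libraries, against 42.5 ± 37.7 in young IL27RA+ and 21.6 ± 23.6 in young IL27RA- libraries (SD, n = 3 each). In the IL27RA- fraction the ages did not overlap for Hoxb7, at 57.8 to 167 in old against 1.93 to 47.8 in young libraries, a difference of 2.82 ± 1.46 (adjusted p = 0.455). In the IL27RA+ fraction they overlapped, and the averaged 95% intervals of both genes held 0. The HoxC genes past the filter, Hoxc4 and Hoxc6, gave 3.01 ± 1.27 and 1.80 ± 1.00, with adjusted p-values of 0.282 and 0.426. Hoxc4 had 88 reads in the 3 old IL27RA+ libraries and 98 in 1 old IL27RA- library, against 1 read in young IL27RA+ and 0 in young IL27RA- libraries.

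**Figure D3:**
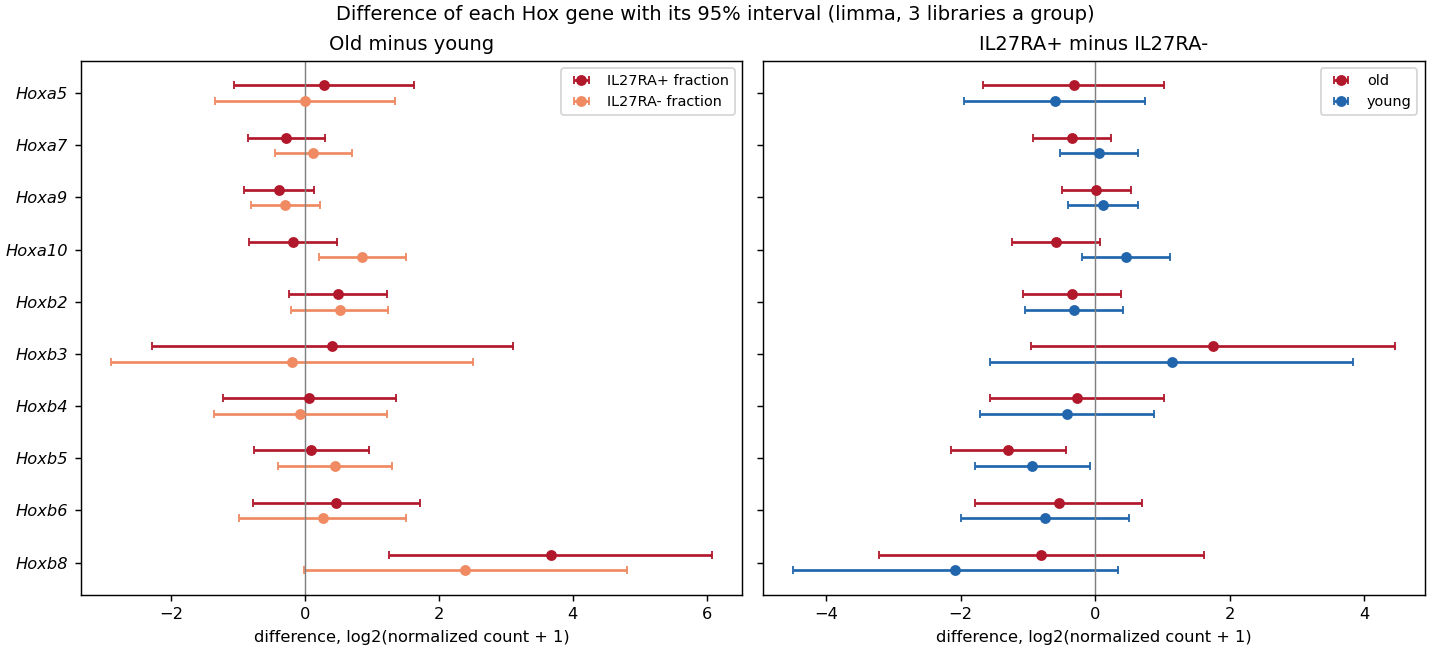
Difference of each Hox gene with its 95% interval on the log2(normalized count + 1) scale, with old minus young on the left (IL27RA+ and IL27RA- fractions) and IL27RA+ minus IL27RA- on the right (old and young). Hoxb8 had the largest age differences, 3.67 and 2.39, and the receptor intervals of Hoxb5 (-1.29 in old and -0.94 in young cells) lay below 0. Larger receptor differences, -2.08 for Hoxb8 in young and 1.75 for Hoxb3 in old cells, had intervals that held both signs.

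Since Hoxb8 had the largest age difference, its promoter window is shown, read from RefSeq (GRCm38.p6, chr11:96281655-96281954, plus strand, 250 bases before to 50 after the start). Capitals mark the match, on either strand, to TGATNNAT, a composite site of Hox and Pbx proteins.
Hoxb8 promoter: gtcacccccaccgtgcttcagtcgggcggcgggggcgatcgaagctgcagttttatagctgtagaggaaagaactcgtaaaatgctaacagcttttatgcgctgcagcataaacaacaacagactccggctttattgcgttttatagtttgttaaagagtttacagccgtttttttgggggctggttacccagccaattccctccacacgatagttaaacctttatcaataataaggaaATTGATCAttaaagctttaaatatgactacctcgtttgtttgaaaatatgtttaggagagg

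This window held 1 match to TGATNNAT, a motif that 8.85% of 32851 RefSeq windows of this length held on either strand. Windows were given for 6 of the 10 members (7 windows), and that of Hoxb8 was the only one of them with a match. None of the 7 held TGACAG, a Meis site that does not overlap the first motif and that 19.2% of all windows held. The Hoxb8 window had 42.3% G and C, below the other 6 member windows, which ranged between 49.7% and 61.7%, and below the median of 52.7% over all windows. It held 13 CpG dinucleotides, the median of the member windows, against a median of 7 over all windows. Such matches describe letters and not binding.

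The clusters also encode microRNAs, short RNAs that pair with messages and lower their stability or translation. They were not measured in these libraries. Their mature RefSeq sequences are shown because the microRNAs of the miR-196 family are known regulators of Hox messages, with the seed (bases 2 to 8) in capitals.
miR-196a-5p: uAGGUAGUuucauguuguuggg
miR-196b-5p: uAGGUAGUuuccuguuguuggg
miR-10a-5p: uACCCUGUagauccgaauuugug

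Mir196a-1 lies in HoxB on chromosome 11 and Mir196b in HoxA on chromosome 6, within an exon of Hoxa9, and the products share the seed AGGUAGU. Mir10a lies near Hoxb4 and has another seed. The site below lies after the coding end of Hoxb8 (bases 2208 to 2229 of its longest GENCODE coding transcript), with the bases paired to miR-196a-5p in capitals and the lower-case g facing a U of the seed.
Hoxb8 site: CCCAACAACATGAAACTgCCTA

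It paired with 21 of the 22 bases of miR-196a-5p, and with all 22 when a G facing a U is counted. The best windows of the other members paired 13 or 14 bases of miR-196a-5p. The 7-base match to the miR-196 seed stood in the longest coding transcripts of 5 of the 10 members and of 15.9% of 21901 genes. Hoxa7 held 4 such matches after its coding end, and Hoxa5, Hoxa9 and Hoxb6 held 1 each there, while the match in Hoxb8 lay before its coding end.

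Hoxb5, whose expression marks long-term stem cells in mice, had the smallest p of the members in the receptor comparison. Its values were 449, 593 and 627 normalized counts in old IL27RA+ libraries, against 1373, 1059 and 1695 in old IL27RA- libraries. Young IL27RA+ libraries had 643, 782 and 273, against 1143, 1181 and 716 in young IL27RA- libraries. In old cells all IL27RA+ libraries lay below all IL27RA- libraries, and in young cells 1 IL27RA+ library overlapped the lowest IL27RA- one.

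IL27RA+ minus IL27RA- was -1.29 ± 0.40 in old cells (adjusted p = 0.476), -0.94 ± 0.40 in young cells (adjusted p = 0.575) and -1.11 ± 0.28 averaged over both (adjusted p = 0.195; interval -1.72 to -0.51; limma, log2). In the averaged comparison 101 of 14803 genes had a smaller p. Under 20 alternatives the averaged difference ranged between -1.26 and -0.89 and its adjusted p between 0.174 and 0.448. Without young IL27RA+ replicate 3, which had the lowest Hoxb5 value, the difference in young cells was -0.48 and its adjusted p 0.788, within a range of 0.477 to 0.859 over its alternatives. The interaction was -0.36 ± 0.57, so the difference was not shown to depend on age.

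Hoxb6, which lies next to Hoxb5, followed it across the libraries. It had 288, 237 and 549.6 normalized counts in old IL27RA+ and 432, 536 and 501 in old IL27RA- libraries, and 241, 473 and 124 in young IL27RA+ and 403, 751 and 221 in young IL27RA- libraries. The groups overlapped, and the averaged receptor difference was -0.64 ± 0.41 (adjusted p = 0.748; limma). Over the 12 libraries Hoxb5 and Hoxb6 had a Pearson r of 0.767 and a Spearman rho of 0.587 on the log2 scale, and 0.753 after group means were taken out. This was the highest r between any pair of members, given as a description of genes that share libraries and depth.

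Markers of some other cells moved with the same sort. In a macrophage list of 14 genes, 13 stood higher in IL27RA+ cells averaged over the ages, with a median of 4.02 log2 units beside 0.05 over all genes. Of these, 5 were called higher (Vcam1, C1qb, C1qc, Hmox1 and Lgals3), where 0.189% of all genes were called. Its summed level was 2046 to 9944 normalized counts in old IL27RA+ libraries and 1223 to 1558 in old IL27RA- libraries, and 6008 to 9948 in young IL27RA+ and 1455 to 2357 in young IL27RA- libraries. Adgre1, a defining macrophage marker, had 0 reads in all IL27RA- libraries. In old IL27RA+ replicate 2, which had the lowest summed macrophage level of the IL27RA+ libraries at 2046, Hoxb5 stood at 593. The mean log2 value of the macrophage list in that library, 5.60, was still above that of every IL27RA- library, of which the highest was 4.27.

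The cell cycle list also moved with the sort, with 20 of 20 genes higher in IL27RA+ cells on average. Of the 20, 1 was called, Ncaph, a condensin subunit, against 0.189% of all genes, and 13 had an unadjusted p under 0.05 (limma), against 7.98%. In old cells 20 of 20 stood higher, with a median of 3.84, 19 without overlap (7.23% of all genes) and 2 called (0.0203%). In young cells 17 stood higher and 3 lower, with a median of 0.81. There 0 stood higher without overlap (5.05% of all genes), 1 lower (4.73%), and 0 were called. The summed level of the list was 17618 to 26021 normalized counts in old IL27RA+ and 5049 to 8224 in old IL27RA- libraries. It was 9985 to 21004.5 in young IL27RA+ and 13317 to 18994 in young IL27RA- libraries. Of the stem cell identity list without Hoxb5, 14 of 16 genes stood lower in IL27RA+ cells, with a median of -0.20 log2 units and no gene called. Procr, the stem cell surface receptor EPCR, had the smallest p there at -0.71 ± 0.14 with an adjusted p of 0.0565 (limma). Erythroid genes past the filter stood higher in IL27RA+ cells in 10 of 10 cases, with a median of 2.11 log2 units, 2 under an unadjusted p of 0.05 and none called. Neutrophil and myeloid genes did so in 6 of 7, with a median of 2.81, 5 under an unadjusted p of 0.05 and none called. Both shifts were larger in young cells, with medians of 3.63 (erythroid) and 4.83 (myeloid). Each had 5 genes under an unadjusted p of 0.05 there (limma), against 8.23% of all genes. In old cells the medians were 0.66 (7 higher, 3 lower) and 0.78 (4 higher, 1 lower). There 0 and 1 were under that p, against 5.38% of all genes. Other lists were mixed, with 1 higher and 5 lower among B and plasma cell genes and 2 and 2 among T cell genes. Stroma and endothelium genes split into 3 higher and 4 lower, and megakaryocyte genes into 7 higher and 3 lower. The summed erythroid level was 672 to 1722 normalized counts in old IL27RA+ and 498 to 815 in old IL27RA- libraries, and 811 to 8428 in young IL27RA+ and 444 to 891 in young IL27RA- libraries. The summed neutrophil and myeloid level was 7796 to 10649.9 in old IL27RA+ and 9052 to 13163 in old IL27RA- libraries, and 4109.5 to 5533 in young IL27RA+ and 3646 to 4436 in young IL27RA- libraries. The part of these lists in the Hoxb5 difference was not tested. In pools of 50 cells, fewer cells that express a gene and less RNA per cell cannot be told apart.

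**Figure D4:**
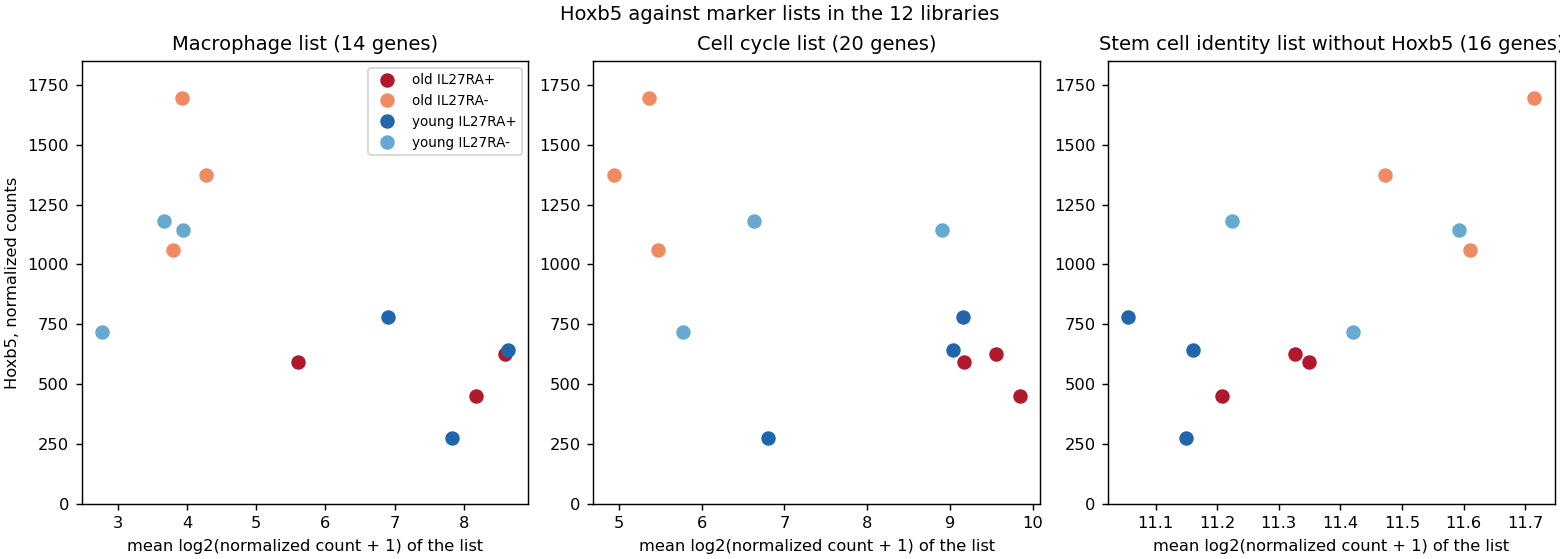
Hoxb5 in normalized counts (vertical axis) against the mean log2(normalized count + 1) of the macrophage, cell cycle and stem cell identity lists (horizontal axes), 1 point a library, coloured by group. The 6 IL27RA+ libraries lay at 782 or below on the Hoxb5 axis, as did young IL27RA- replicate 3 at 716. In the macrophage panel the IL27RA+ libraries lay to the right of all IL27RA- libraries.

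Of the remaining HoxB members, Hoxb2 had 1497, 1196 and 1819 normalized counts in old IL27RA+ and 2632, 1389 and 1828 in old IL27RA- libraries. Young IL27RA+ libraries had 1165, 966 and 1041 and young IL27RA- libraries 997, 2249.9 and 1017. Old IL27RA+ libraries lay above young IL27RA+ ones, and the fractions without the receptor overlapped because young IL27RA- replicate 2 stood high. The averaged age difference was 0.50 ± 0.24 (adjusted p = 0.344), and its antisense partner Hoxb3os gave 0.61 ± 0.25 (adjusted p = 0.263; limma). The averaged receptor difference of Hoxb2 was -0.33 ± 0.24, and it was -0.02 without old IL27RA- replicate 1 and young IL27RA- replicate 2.

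Hoxb4, which expands stem cells when overexpressed, had 225, 264 and 148 normalized counts in old IL27RA+ and 440.1, 247 and 144 in old IL27RA- libraries. Young IL27RA+ libraries had 198, 235 and 164 and young IL27RA- libraries 268, 453 and 151. Its averaged age difference was 0.00 ± 0.43 (interval -0.92 to 0.91) and its averaged receptor difference -0.35 ± 0.43, both within the spread of the libraries.

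Hoxb3 had 61.9, 32.6 and 89.1 normalized counts in old IL27RA+ and 8.67, 37.4 and 12.6 in old IL27RA- libraries, and 65.8, 109 and 10.03 in young IL27RA+ and 68.5, 9.30 and 9.65 in young IL27RA- libraries. It was the most variable member within groups, with an SD of 1.33 log2 units against 0.91 for Hoxb8. Its averaged receptor difference was 1.44 ± 0.89 (adjusted p = 0.733; limma) and thus of the opposite sign to that of its neighbours Hoxb2 and Hoxb4, with an interval of -0.47 to 3.35 that holds both signs.

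Between the fractions, 8 of 10 members stood lower in IL27RA+ cells averaged over the ages, with a median of -0.34 log2 units beside 0.05 over all genes. Without old IL27RA- replicate 1 and young IL27RA- replicate 2 this was 6 of 10, with a median of -0.07. No member was free of overlap over both ages together, against 0.311% of all genes higher and 0.115% lower. In young cells 1 of 10 members (Hoxb8) stood lower in IL27RA+ libraries without overlap, against 4.73% of all genes, and in old cells 1 of 10 (Hoxb5), against 5.38%. None stood higher without overlap, against 5.05% of all genes in young and 7.23% in old cells. The test called 0 members in either age and 0.0203% of all genes in each, and Hoxb5 was the 1 member of 10 under an unadjusted p of 0.05 in both, against 8.23% of all genes in young and 5.38% in old cells.

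Summed per kilobase, the 4 HoxA members reached 1400.0 ± 77.2 in old IL27RA+, 1768 ± 304 in old IL27RA-, 1657 ± 169 in young IL27RA+ and 1518 ± 66.5 in young IL27RA- libraries (SD, n = 3 each). The 6 HoxB members reached 938 ± 165 normalized counts per kilobase in old IL27RA+, 1456 ± 247 in old IL27RA-, 742 ± 197 in young IL27RA+ and 1133 ± 462 in young IL27RA- libraries. HoxB thus made up between 22.4% and 53.1% of the summed level in single libraries. The HoxA sum varied less, between 1315 and 2119.6, than the HoxB sum, between 529 and 1674. These sums are descriptions that depend on the exon lengths used, and they were not tested.

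Genes with the most alike pattern were sought among 9730 non-Hox genes with a mean of at least 100 normalized counts. For the mean log2 value of the HoxA members these were Jund (Pearson r = 0.847 over 12 libraries), Gstk1 (0.845), Supt6h (0.837), Atp8b2 (0.836) and Atxn7l3b (0.835). For that of the HoxB members they were Entpd2 (0.940), Cldn5 (0.924), Tm4sf1 (0.906), Slc16a12 (0.879) and Eif2s2 (0.875). They were picked as the highest of many, so the values describe likeness in these libraries only. The means were taken over unscaled log2 values. That of HoxB is therefore weighted to Hoxb8 and Hoxb3, with the widest ranges over the libraries (167-fold and 12.6-fold). The HoxB members did not all move together, with a Pearson r of -0.394 between Hoxb3 and Hoxb2 against 0.767 between Hoxb5 and Hoxb6.

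The partners of Hox proteins were not called in any of the 7 comparisons either. Of 11 TALE cofactors past the filter, 8 stood higher and 3 lower in old cells on average, with a median of 0.19 log2 units beside 0.06 over all genes, and 4 of 11 stood higher and 7 lower in IL27RA+ cells. Meis2, a relative of Meis1, averaged 105 ± 91.6 normalized counts in old IL27RA+ and 267 ± 120.0 in old IL27RA- libraries, against 2.05 ± 2.63 in young IL27RA+ and 172 ± 147 in young IL27RA- libraries (SD, n = 3 each). It gave -3.71 ± 0.89 for the receptor (adjusted p = 0.142) and 3.04 ± 0.89 for age (adjusted p = 0.104; limma). Both differences use the young IL27RA+ mean, which lay under the floor of 3 reads, 2.82 to 3.76 normalized counts in those libraries. Tgif1 and Pbx3 gave age differences of 0.43 ± 0.19 and 2.18 ± 0.99, with adjusted p-values of 0.31 and 0.317.

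Among 23 activators of Hox transcription, 8 stood higher and 15 lower in old cells on average, with a median of -0.15, and none was called. Kmt2a, the methyltransferase of the MLL complex, averaged 5434 ± 1271 normalized counts in old IL27RA+ and 6381 ± 1891 in old IL27RA- libraries, against 7962 ± 1378 in young IL27RA+ and 7995 ± 2114 in young IL27RA- libraries, a difference of -0.45 ± 0.19 (adjusted p = 0.28; limma). Wdr5, a core subunit of that complex, gave -0.51 ± 0.20 and Ash1l, another methyltransferase, -0.48 ± 0.20. Psip1, which tethers the complex to chromatin, gave 0.69 ± 0.18 for the receptor (adjusted p = 0.212).

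Of 25 Polycomb genes, 12 stood higher and 13 lower in old cells, with a median of -0.02, and 9 stood higher and 16 lower in IL27RA+ cells. Cbx7, a subunit of Polycomb repressive complex 1, had an averaged age difference of -0.89 ± 0.27 (adjusted p = 0.121). Its relative Cbx6 gave a receptor difference of -0.52 ± 0.21 with an adjusted p of 0.518, and the histone chaperone Rbbp4 an age difference of 0.51 ± 0.20 (limma).

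Genes reported as targets of Hoxa9 and Meis1 held called members in both directions. Of 17, 2 rose and 1 fell in old cells averaged over the fractions, where 1.85% of all genes were called, with a median of 0.04 beside 0.06 over all genes. The growth factor gene Igf1 stood at 93.0 ± 33.4 normalized counts in old IL27RA+ and 85.7 ± 19.1 in old IL27RA- libraries, against 344 ± 112 in young IL27RA+ and 815 ± 218 in young IL27RA- libraries (SD, n = 3 each). It fell by 2.56 ± 0.40 log2 units (limma adjusted p = 0.00333), and its groups did not overlap in either fraction. Id2, an inhibitor of differentiation factors, rose by 1.78 ± 0.35 (adjusted p = 0.0162), and Mef2c, a MADS-box factor of myeloid and lymphoid progenitors, by 0.79 ± 0.17 (adjusted p = 0.033). Between the fractions, where 0.189% of all genes were called, 1 of 17 rose, Cdk6, the kinase that drives exit from quiescence. It averaged 11950.2 ± 2726 in old IL27RA+ libraries against 5014 ± 1357 in old IL27RA-, and 8052 ± 3367 in young IL27RA+ against 2814 ± 938 in young IL27RA- libraries, a difference of 1.38 ± 0.23 (adjusted p = 0.0279).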

How the data were processed

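The members and the gene lists were chosen with earlier results of these data known. Libraries were made with Smart-Seq2, per the labels' protocols. The submitters' processing notes name FastQC (0.11.5), HTSeq, DESeq2 and TopHat2 (2.1.1), without saying which did what. Neither the genome build nor the treatment of reads in overlapping genes is given in the sources used here. The authors deposited 1 log2 value for each gene in each library, which the values show to be log2 of reads over a size factor plus a pseudocount of 1. They gave whole reads for 100% of values within 0.001 reads. Of 20473 lines, 1 damaged line and 15 repeats were left out. Exon lengths, over all annotated exons of a gene, came from GENCODE, and promoter and microRNA sequences from RefSeq (GRCm38.p6).

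All 12 libraries entered 1 limma 3.58.1 fit (R 4.3.3) with a variance trend and 1 mean per group, with 8 residual and 6.58 prior degrees of freedom. Genes entered when 3 of 12 libraries reached 10 on the linear scale. P-values were adjusted over 14803 genes by Benjamini and Hochberg with a threshold of 0.05. The comparisons were old minus young and IL27RA+ minus IL27RA-, each averaged and within strata, and their interaction. No library was left out of the main values. All members are named. Of each list, called genes are named, or up to 4 with the smallest p. A few genes that meet these rules are not reported here. Library weights came from limma's array weights and did not enter the fit. Counting floors cover counting error only, since amplified reads are not independent molecules.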

Additional observations from a re-analysis of the deposited data

How the results depend on the processing

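Over 21 alternatives, Hoxb8 with a pseudocount of 10 was the only call of a member. This made 1 of 10 members called in the averaged age comparison, against 307 of 14803 genes called in that setting. Of 1426 member differences under alternatives, 72 had the other sign, and no called one did. Counts over all genes moved more. Without a filter the calls were 64 for age in IL27RA- cells, 14 for the averaged receptor comparison, 8 in young and 5 in old cells. With the stricter filter (50 in 6 libraries) they were 9 for the averaged receptor comparison and 1 in young cells, and 8 members passed. With a pseudocount of 10 they were 6 for the receptor in young and 10 in old cells. Voom gave 13 for age in IL27RA+ cells, 7 for the averaged receptor comparison, and 0 in young and 0 in old cells. A fit of 2 groups gave 0 for age in IL27RA- cells, 37 in IL27RA+ cells, and 0 for the receptor in young and 29 in old cells. Scaling to equal total reads split the 290 age calls into 183 higher and 107 lower. Without old IL27RA- replicate 1 and young IL27RA- replicate 2, an alternative chosen after seeing the data, calls were 25 for age in IL27RA- cells, 18 for the averaged receptor comparison and 12 in old cells.

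Leaving out 1 library at a time gave 140 to 431 calls for averaged age, 31 to 271 for age in IL27RA- cells and 4 to 96 in IL27RA+ cells. It gave 6 to 96 for the averaged receptor comparison, 0 to 50 in young and 1 to 24 in old cells, and 0 to 5 for the interaction, and it called 0 members throughout. Counts for averaged age were 140, 142 and 165 without one of the old IL27RA+ libraries, and 161 and 174 without old IL27RA- replicate 2 or 3. The highest counts came without young IL27RA- replicate 1, except 96 for age in IL27RA+ cells, which came without young IL27RA- replicate 2. Over all pairs of groups, same-numbered deviations correlated between -0.0543 and 0.106. Within an age, same-numbered deviations of the fractions correlated between 0.00393 and 0.106, and those with different numbers between -0.0680 and 0.0381. Whether the numbers pair samples within an age was therefore not settled, and the main fit treats the samples as unpaired. A fit with the replicate number as a block, shared by both ages, gave 0 calls for the receptor in young cells and 307 for averaged age, and no member was called. The cause was not tested. Depth limits Hoxb8 and Hoxb3, whose lowest libraries held 1 and 8 reads.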

Other observations

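The lineage lists also held called genes. In old cells averaged over the fractions, where 1.85% of all genes were called, 3 of 10 megakaryocyte genes rose. Selp, the platelet adhesion receptor P-selectin, rose by 6.34 ± 0.87 log2 units (limma adjusted p = 0.00109), Itgb3, a platelet integrin chain, by 2.02 ± 0.41 and Vwf, the von Willebrand factor, by 0.72 ± 0.16. Vwf fell by 1.03 ± 0.16 in IL27RA+ cells averaged over the ages. Of the neutrophil and myeloid genes 1 of 7 rose with age, the granule protease gene Prtn3, by 1.22 ± 0.15 (adjusted p = 0.000439). Mpo, another granule enzyme, had 0 reads in old IL27RA+ libraries, against an average of 69.1 normalized counts in young IL27RA+ libraries. This contrast held in the IL27RA+ fraction only. The lowest age difference of the list was -5.94 in IL27RA+ cells and -0.129 in IL27RA- cells, and its lowest interaction was also -5.94. In young cells its largest receptor difference was 5.94.

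Of the B and plasma cell genes 1 of 6 rose with age, against 1.85% of all genes called: Cd74, the invariant chain of antigen presentation, by 1.54 ± 0.29. Of the stroma and endothelium genes Emcn fell by 1.21 ± 0.22 with age on average. Cxcl12 averaged 0.319 normalized counts, under the floor of 3 reads, in old IL27RA+ libraries, against 219 in young IL27RA+ libraries. That contrast of Cxcl12 also held in the IL27RA+ fraction only. The lowest age difference of the list in IL27RA+ cells and its lowest interaction were both -7.16. In young cells its largest receptor difference was 7.48. In the macrophage list Axl fell by 1.54 ± 0.34 and Lgmn rose by 3.58 ± 0.82 in old cells on average. The rise of Lgmn lay in the IL27RA- fraction, at 7.13. In IL27RA+ cells no gene of the list rose by more than 2.04 with age. The lowest interaction of the list was -7.09, which was not called. The cell cycle gene Uhrf1 averaged 787 normalized counts in old IL27RA+ libraries, against 14.6 in old IL27RA- libraries, and was called there. In the T cell list 0 of 4 genes past the filter and in the erythroid list 0 of 10 were called by limma in any comparison. Trac had the smallest p of the T cell genes at 3.44 ± 1.26 for age (adjusted p = 0.206), and Gata1 that of the erythroid genes at 5.25 ± 1.495 for the receptor (adjusted p = 0.274).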
